A study of Mus musculus with 10 samples.

Results

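Interferon regulatory factors (IRFs) are transcription factors that turn the sensing of viral nucleic acid, and the binding of interferon to its receptors, into gene expression. The genes described here were the rows of the count table named Irf1, Irf2, Irf3, Irf4, Irf5, Irf7, Irf8 or Irf9, which gave 8 genes of the 26378 gene names in the table, with 1 row each. All 8 were among the 14944 genes that passed the filter on low values, a CPM (counts scaled to the library size) above 0.366 in at least 3 tumors.

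The RNA came from WEHI-164 tumors, a mouse fibrosarcoma cell line grown under the skin of female BALB/c mice. The labels give every sample as WT and untreated. A piece of each tumor was removed at surgery, before a hydrogel that releases poly(I:C), a synthetic double-stranded RNA, was placed on what remained. The 5 responders (tumors 5, 9, 10, 11 and 12) were mice whose tumor regressed completely after that treatment. The 5 non-responders (tumors 1, 2, 3, 6 and 7) were mice whose tumor growth was not delayed. Each mouse gave 1 piece, so the spread within a group is the spread between mice. The model is 1 cell line, and each piece held cancer cells together with the cells of the host. In such bulk RNA, fewer cells of a type and less RNA per cell cannot be told apart. Estimated counts in named genes ran from 15778380 to 30785314 per responder (median 25287594) and from 19606116 to 27908359 per non-responder (median 22484573). The labels give no batch. Of the responders, 4 of 5 carry higher tumor numbers than every non-responder, and what the numbers stand for is not given in the labels.

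Each IRF binds DNA through a conserved domain that recognizes GAAA repeats, which make up the interferon-stimulated response element. IRF3 and IRF7, and in some cells IRF5, are phosphorylated downstream of nucleic acid sensors such as TLR3 and MDA5, the receptors of poly(I:C), and then switch on the type I interferon genes. Type I interferon in turn activates ISGF3, a complex that holds STAT2 and IRF9. Interferon gamma acts through another DNA element, the gamma-activated site. IRF1 is an activator of antigen presentation and guanylate-binding protein genes, and IRF2 binds many of the same sites and can oppose it. IRF4 and IRF8 are made mainly by blood-derived cells, where they bind DNA with partners such as PU.1 and BATF proteins.

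The promoters of Irf1, Irf8 and Irf2 are shown because they were the ones among the 8 genes in which either motif was found, and Irf1 and Irf8 are the genes with the largest group differences below. Each line is the 250 bases before the start of the gene in RefSeq (GRCm38.p6, the assembly also called mm10), 5′ to 3′ on the strand of the gene, which is the plus strand for all 3. Capitals mark the gamma-activated site letters TTCNNNGAA and, in Irf2 alone, also 2 copies of GAAA separated by 2 bases of any kind, searched on both strands.
Irf1: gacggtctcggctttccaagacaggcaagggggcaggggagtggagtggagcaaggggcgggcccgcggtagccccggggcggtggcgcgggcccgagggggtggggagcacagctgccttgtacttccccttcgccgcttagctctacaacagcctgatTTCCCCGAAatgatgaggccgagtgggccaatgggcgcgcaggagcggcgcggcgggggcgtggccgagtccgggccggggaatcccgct
Irf8: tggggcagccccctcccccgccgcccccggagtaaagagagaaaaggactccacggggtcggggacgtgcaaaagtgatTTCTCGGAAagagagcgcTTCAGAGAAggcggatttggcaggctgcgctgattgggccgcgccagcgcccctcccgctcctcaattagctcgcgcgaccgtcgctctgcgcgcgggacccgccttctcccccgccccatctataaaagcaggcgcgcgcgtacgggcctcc
Irf2: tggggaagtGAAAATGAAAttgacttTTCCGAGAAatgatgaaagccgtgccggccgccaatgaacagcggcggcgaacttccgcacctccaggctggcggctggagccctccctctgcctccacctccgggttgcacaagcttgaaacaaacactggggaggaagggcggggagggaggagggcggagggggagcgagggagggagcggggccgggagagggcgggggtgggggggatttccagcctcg
These windows lie at chr11:53769764-53770013, chr8:120736108-120736357 and chr8:46739495-46739744. The site in Irf1 is TTCCCCGAA, from 90 to 82 bases before the start. Irf8 holds a pair, TTCTCGGAA from 171 to 163 and TTCAGAGAA from 153 to 145 bases before the start. In Irf2, TTCCGAGAA lies from 224 to 216 bases and the GAAA pair, GAAAATGAAA, from 241 to 232 bases before the start, and the 2 do not overlap. RefSeq gave 11 promoters for the 8 genes, of which 3 held TTCNNNGAA and 1 the GAAA pair within 300 bases, 250 before and 50 after the start. Among all 32851 mouse promoters of this length, 8.30% held TTCNNNGAA and 3.44% the GAAA pair. A match of letters is a description of the sequence and not evidence of binding.

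All 8 genes had a higher mean in responders, but none was called different between the groups. The differences were 1.37-fold for Irf8, 1.34-fold for Irf1, 1.29-fold for Irf4 and 1.14-fold for Irf9, and between 1.04-fold and 1.06-fold for Irf2, Irf3, Irf5 and Irf7. A gene was called when the p-value of edgeR's quasi-likelihood test, adjusted over all 14944 genes with the Benjamini-Hochberg method, was below 0.05. No gene of the table passed, 0% of those tested, and the smallest adjusted p-value in the whole table was 0.555. DESeq2 and limma-voom also called 0 genes, and edgeR without responder 5 called 10 genes, with none of the 8 IRF genes among them. At an unadjusted p below 0.05, 3 of the 8 genes (Irf8, Irf1 and Irf9) were higher in responders and 0 were lower. Of all genes tested, 1251 (8.37%) had such a p in either direction and 4.75% had it with a higher value in responders. A log2 fold change above 0, as in 8 of 8 here, was found for 50.3% of all genes. The median log2 fold change was 0.13 over the 8 genes and 0.00101 over all genes tested. The CPM values of the groups overlapped for each of the 8, while 0.883% of all genes had groups that did not overlap.

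**Figure D1:**
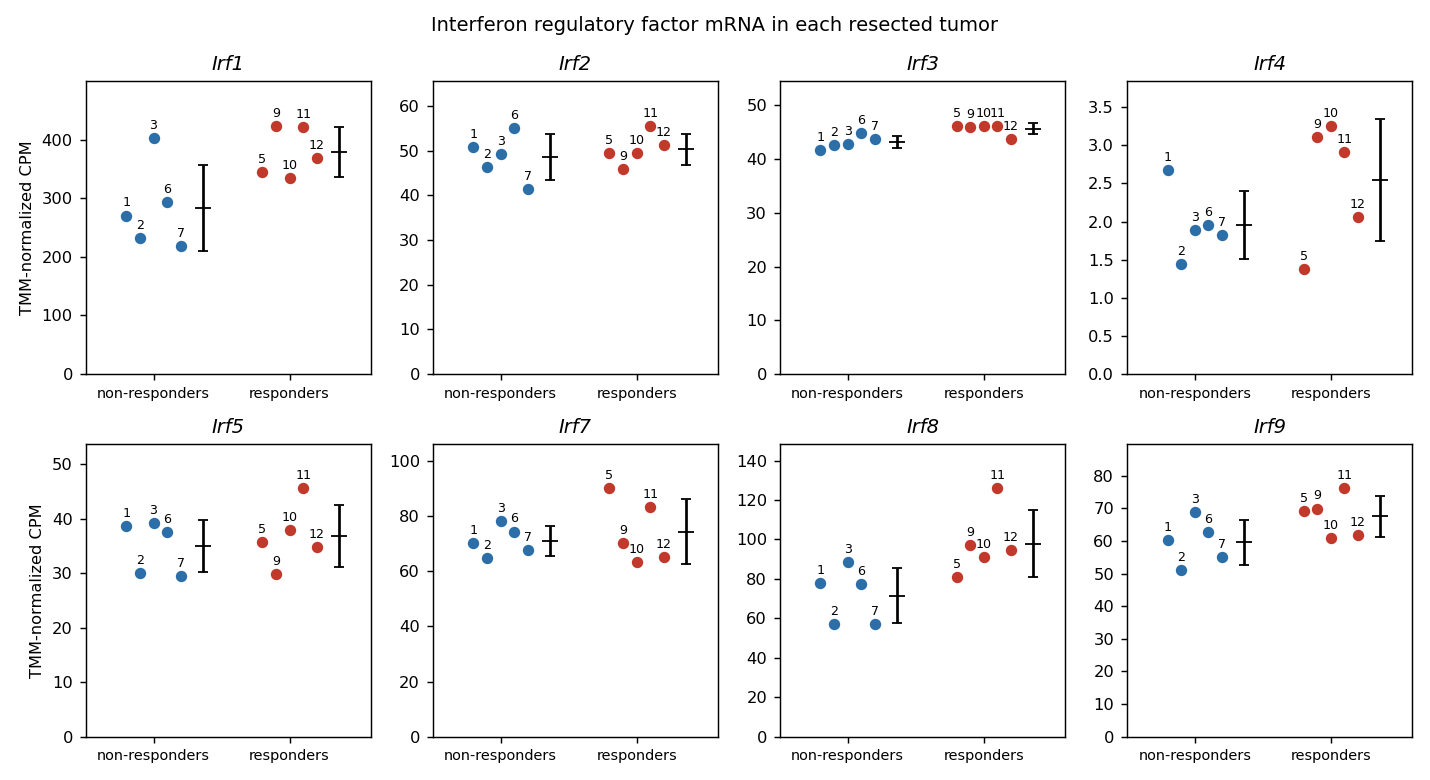
TMM-normalized CPM (vertical axes, each from 0) of the 8 IRF genes in the 10 resected tumors. Points are single tumors with their number, blue for non-responders and red for responders, and the black bar is the mean with the SD of 5 tumors. Irf1 and Irf8 show the clearest shift between the groups, and non-responder 3 lies among the responders for Irf1.

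Irf8, the factor needed for monocyte and cross-presenting dendritic cell development, had the smallest p-value of the 8. Its CPM was 80.8, 97.1, 91.2, 125.9 and 94.6 in responders 5, 9, 10, 11 and 12, and 77.9, 57.4, 88.4, 77.5 and 56.9 in non-responders 1, 2, 3, 6 and 7. Thus 4 of 5 responders lay above every non-responder, and the overlap came from responder 5 and non-responder 3. Responders averaged 97.9 ± 16.8 CPM and non-responders 71.6 ± 13.9 CPM (mean ± SD of 5 tumors). This gave a log2 fold change of 0.46 (SE 0.14, 95% interval 0.16 to 0.75), with an unadjusted p of 0.00509 and an adjusted p of 0.555 in edgeR. An exact two-sided permutation test over the 252 assignments of the labels, in which the smallest possible p is 0.00794, gave p = 0.0159.

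Irf1, the transcriptional activator induced by interferon gamma, was the most abundant of the 8 per length of transcript. Responders 5, 9, 10, 11 and 12 had 345, 424, 335, 422 and 369 CPM, and non-responders 1, 2, 3, 6 and 7 had 271, 232, 403, 293 and 219 CPM. Of the non-responders, 4 of 5 lay below every responder, and non-responder 3 lay above 3 of the responders. Responders averaged 379 ± 42.0 CPM against 283 ± 73.2 CPM, a log2 fold change of 0.42 (SE 0.14, unadjusted p = 0.011, edgeR adjusted p = 0.555). The exact permutation p was 0.0397. Without non-responder 3 the log2 fold change was 0.58, and over the tumors left out in turn it was never below 0.34.

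Irf9, the DNA-binding subunit of ISGF3, showed a smaller difference. Its CPM was 69.1, 69.9, 60.9, 76.0 and 61.8 in responders 5, 9, 10, 11 and 12, and 60.2, 51.1, 68.8, 62.6 and 55.0 in non-responders 1, 2, 3, 6 and 7. Only responders 5, 9 and 11 lay above every non-responder. The log2 fold change was 0.18 (SE 0.08, unadjusted p = 0.0443, edgeR adjusted p = 0.589), and the exact permutation p was 0.0952. Its ISGF3 partner Stat2 had a log2 fold change of 0.23 (SE 0.11, unadjusted p = 0.051, edgeR adjusted p = 0.60).

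Irf3 and Irf7, the factors that drive type I interferon genes after sensing of nucleic acid, differed little between the groups. Irf3 is made constitutively by most cells, and its CPM was the steadiest of the 8, from 41.7 to 46.2 over all tumors. Responders 5, 9, 10, 11 and 12 had 46.1, 46.0, 46.1, 46.2 and 43.7 CPM, and non-responders 1, 2, 3, 6 and 7 had 41.7, 42.6, 42.8, 44.8 and 43.7 CPM. Although 4 of 5 responders were above every non-responder, the log2 fold change was only 0.08 (SE 0.04, 95% interval -0.010 to 0.17). The exact permutation test on log2 values gave p = 0.0238, and edgeR gave an unadjusted p of 0.078 and an adjusted p of 0.630.

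Irf7, which unlike Irf3 is itself an interferon target, was higher in some tumors of either group. It measured 90.0, 70.0, 63.4, 83.2 and 65.1 CPM in responders 5, 9, 10, 11 and 12, and 70.2, 64.6, 78.2, 74.4 and 67.5 CPM in non-responders 1, 2, 3, 6 and 7. Responder 5 was the highest and responder 10 the lowest of all tumors, so the responders enclosed the non-responders. The log2 fold change was 0.07 (SE 0.09, 95% interval -0.13 to 0.27, edgeR adjusted p = 0.871), and it was -0.0086 without responder 5.

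Irf4, a factor of lymphocytes, plasma cells and some dendritic cells, was the scarcest of the 8 per length, at 35 to 88 estimated counts per tumor. Its CPM was 1.38, 3.10, 3.26, 2.91 and 2.06 in responders 5, 9, 10, 11 and 12, and 2.67, 1.44, 1.89, 1.96 and 1.82 in non-responders 1, 2, 3, 6 and 7. Responders 9, 10 and 11 lay above every non-responder and responder 5 below every one. The log2 fold change of 0.37 had an SE of 0.24 and a 95% interval of -0.14 to 0.88 (edgeR adjusted p = 0.704). Without responder 5 it was 0.53 (unadjusted p = 0.0196 in edgeR), and without responder 10 it was 0.27.

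The groups also overlapped for the other members, Irf2 and Irf5. Irf2, the repressor of IRF1 target sites, spanned 46.0 to 55.6 CPM in responders against 41.4 to 55.1 CPM (log2 fold change 0.05, SE 0.07, 95% interval -0.11 to 0.21, edgeR adjusted p = 0.876), a log2 fold change that was 0.00063 without non-responder 7 and 0.098 without non-responder 6. Irf5, a factor of macrophages and B cells that acts downstream of MyD88, spanned 29.9 to 45.6 CPM in responders against 29.5 to 39.2 CPM (log2 fold change 0.08, SE 0.11, 95% interval -0.16 to 0.32, edgeR adjusted p = 0.879). For both, 1 responder lay above every non-responder, responder 11 in each case, and without responder 11 the log2 fold change of Irf5 was -0.015.

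**Figure D2:**
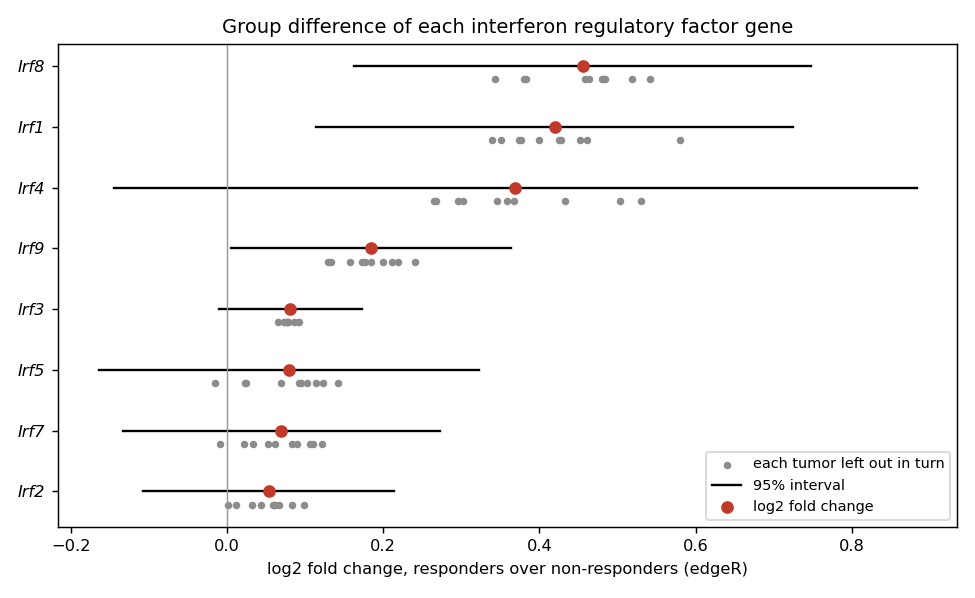
Log2 fold change of responders over non-responders (horizontal axis, edgeR) for each IRF gene, as a red point with its 95% interval as a black line. Gray points are the same estimate with each of the 10 tumors left out in turn. The intervals of Irf8, Irf1 and Irf9 lie above 0, and the gray points of Irf5 and Irf7 reach both sides of 0.

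Within each tumor the balance between pairs of members was compared without a test. These values were not divided by transcript length, so they compare tumors and not the abundance of 2 genes. Irf1 exceeded Irf2 by 2.88 ± 0.18 in log2(CPM + 1) in responders and by 2.49 ± 0.29 in non-responders, where tumor 3 had 3.01 and the other 4 had 2.30 to 2.39. The log2 fold change of Irf2 was 0.05, so most of this contrast was that of Irf1. Irf8 exceeded Irf4 by 4.82 ± 0.29 in responders and by 4.61 ± 0.24 in non-responders. The 1 added to each CPM narrows the gap to Irf4, which lay at only 1.38 to 3.26 CPM. Irf7 exceeded Irf3 by 0.68 ± 0.21 and 0.70 ± 0.11, respectively. For Irf1 over Irf2, 5 of 5 responders had 2.73 or more.

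To compare the abundance of one gene with another, CPM was divided by the length of the longest annotated coding transcript. In CPM per kilobase over the 10 tumors, Irf1 stood first at 155 ± 35.3, followed by Irf7 at 32.5 ± 3.92, Irf8 at 29.8 ± 7.06, Irf3 at 21.9 ± 0.833, Irf9 at 21.5 ± 2.53, Irf2 at 19.8 ± 1.70, Irf5 at 16.0 ± 2.26 and Irf4 at 0.472 ± 0.143. Irf1 exceeded Irf7, and Irf5 exceeded Irf4, in 10 of 10 tumors without overlap of their ranges. The ranges of every other pair of neighbors overlapped, and Irf7 exceeded Irf8 in 6 of 10 tumors. With the union of all exons as length, Irf1 and Irf7 again led and Irf4 was last, while Irf8 came after Irf3 and Irf5.

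In GENCODE vM21 on GRCm38, Irf1 lies at chr11:53770014-53778374, Irf8 at chr8:120736358-120756694, Irf2 at chr8:46739732-46847458, Irf9 at chr14:55603571-55610030, Irf5 at chr6:29526625-29541871, Irf4 at chr13:30749226-30766976 and Irf3 at chr7:44997648-45002848, all on the plus strand. Irf7 lies on the minus strand at chr7:141262706-141266481. Neighbors that overlap at their ends could share reads. These are Bcl2l12 with Irf3, Tnpo3 with Irf5 and Phrf1 with Irf7 on the opposite strand, and Rnf31 with Irf9 on the same strand. Whether the authors' estimation used strand is not given in the sources used here. Further overlaps in the annotation are Irf8 with Gm20388, Irf1 with Gm17334, and Irf2 with Gm45479, Gm31172 and Gm45481. The table has no row of those names.

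The 28 pairs of members were correlated across the 10 tumors in log2(CPM + 1), with permutation tests of 100000 resamples and Benjamini-Hochberg adjustment over the 28. Pearson's r was above 0 in 27 of 28 pairs, with a median of 0.50, and 4 pairs had an adjusted p below 0.05. Irf1 and Irf8 gave r = 0.92 and Spearman's rho = 0.92 (permutation p = 0.00015 and 0.00048, adjusted 0.0042 and 0.0134). Irf1 and Irf9 gave r = 0.90 and rho = 0.89 (permutation p = 0.0006 and 0.00118, adjusted 0.0084 and 0.0165). These genes varied together also within the groups, with r = 0.84 for either pair on deviations from the group means.

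Irf8 and Irf9 gave r = 0.87 and rho = 0.76 (permutation p = 0.00142 and 0.0153, adjusted 0.0133 and 0.143). Irf2 and Irf5 gave r = 0.85 and rho = 0.68 (permutation p = 0.00265 and 0.0351, adjusted 0.0186 and 0.154). For both pairs the rank correlation did not pass after adjustment. Each relation was recomputed without the 2 tumors farthest from the median of the first gene, which left r = 0.77 for Irf1 and Irf8, 0.78 for Irf1 and Irf9, 0.77 for Irf8 and Irf9 and 0.72 for Irf2 and Irf5, with exact permutation p-values of 0.0182, 0.0271, 0.0326 and 0.0447. Spearman's rho was then 0.83, 0.81, 0.55 and 0.38 in the same order (exact permutation p = 0.0154, 0.0218, 0.171 and 0.360). Irf7 and Irf4 gave the only negative r, -0.24 (rho = -0.27, permutation p = 0.495 and 0.449, adjusted 0.544 and 0.546).

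Each member was also set against 3 reference genes: the leukocyte gene Ptprc (CD45), the macrophage gene Adgre1 (F4/80) and Isg15, a classical type I interferon target. Of these 24 relations, 6 passed by Pearson's r and 4 by both measures after adjustment over the 32 relations computed.

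With Ptprc, Irf8 gave r = 0.91 and rho = 0.90 (permutation p = 0.00018 and 0.00088, adjusted 0.00144 and 0.00704), and 0.85 without the farthest 2 tumors (exact permutation p = 0.00714). Irf4 and Ptprc gave r = 0.81 and rho = 0.83 (permutation p = 0.00503 and 0.00491, adjusted 0.0201 and 0.0262), and 0.78 without them (exact permutation p = 0.0244). Irf4 and Adgre1 gave r = 0.79 and rho = 0.84 (permutation p = 0.00951 and 0.00357, adjusted 0.0338 and 0.0228), and 0.74 without them (exact permutation p = 0.0346). Irf4 and Irf8, genes of blood-derived cells, varied with the leukocyte gene of the same piece, but this was not particular to them. With Ptprc, Irf9 gave r = 0.73 (adjusted permutation p = 0.0572) and Irf5 gave r = 0.66 (adjusted permutation p = 0.0868), and Irf1 passed by both measures. Irf1 and Ptprc gave r = 0.82 and rho = 0.78 (permutation p = 0.00476 and 0.0103, adjusted 0.0201 and 0.0470), 0.53 without non-responders 2 and 7 (exact permutation p = 0.175), and 0.77 on deviations from the group means (permutation p = 0.00693). Irf8 and Adgre1 gave r = 0.80 and rho = 0.71 (permutation p = 0.00379 and 0.0270, adjusted 0.0201 and 0.0961), and 0.65 without non-responder 7 and responder 11 (exact permutation p = 0.0646).

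Among the 3 reference genes, Irf7 had its highest r with Isg15. It gave r = 0.84 and rho = 0.68 (permutation p = 0.00247 and 0.0341, adjusted 0.0158 and 0.109), and 0.72 without responders 5 and 11 (exact permutation p = 0.0504). Isg15 was highest in responder 5, at 62.2 CPM, and 39.5 to 51.1 CPM in the other 9 tumors. With Isg15, Irf1 gave r = 0.24 (rho = 0.30, permutation p = 0.516 and 0.403, adjusted 0.612 and 0.478) and Irf8 gave r = 0.05 (rho = 0.04, permutation p = 0.895 and 0.919, adjusted 0.908 and 0.919).

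**Figure D3:**
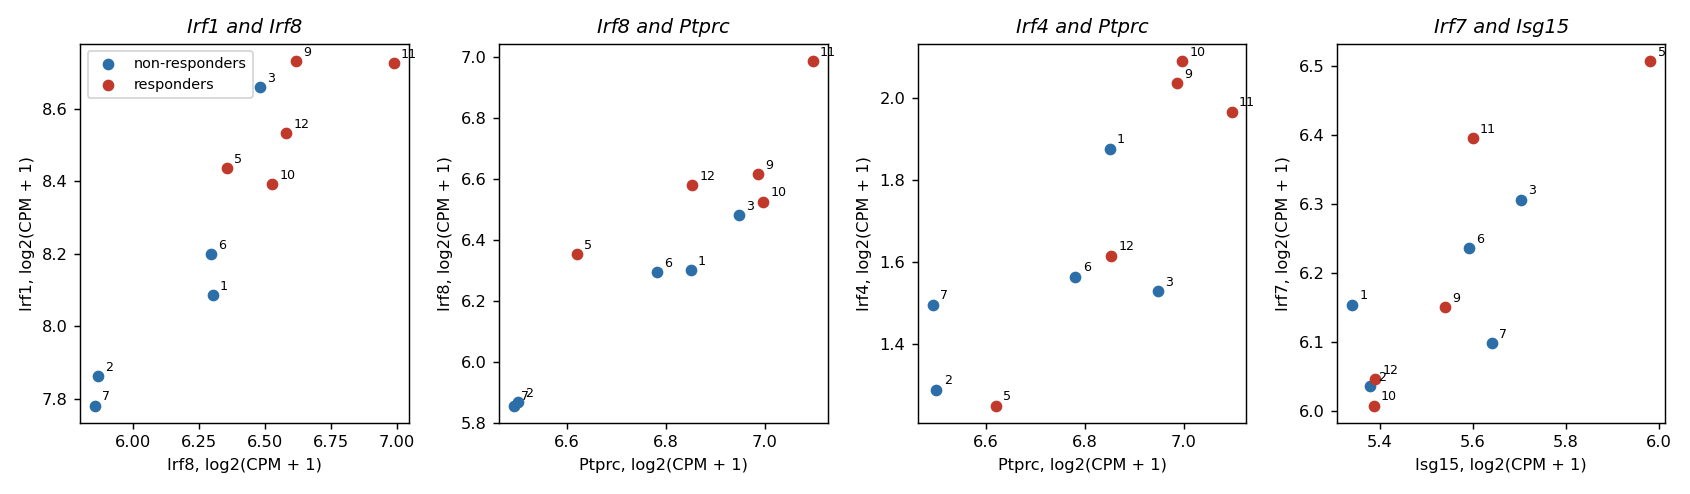
Log2(CPM + 1) of an IRF gene (vertical axes) against another IRF gene or a reference gene (horizontal axes) in the 10 tumors, blue for non-responders and red for responders, with tumor numbers. Non-responders 2 and 7 are lowest for both Irf1 and Irf8, and responder 5 is the highest point of Irf7 and Isg15. The axes do not start at 0.

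As a description, with no test, the genes whose values followed each member most closely were found among the 14943 other genes tested (Pearson's r over the 10 tumors, highest of many). For Irf1 these included Gbp4 and Iigp1 (r = 0.98 for each), both interferon gamma targets. For Irf7 they were Dhx58, Ifi44 and Rtp4 (r = 0.91 to 0.95), targets of type I interferon. For Irf9 they were Rmdn3, Tapbpl and Gbp3 (r = 0.97 for each), and for Irf8 Htr7, Ubd and Slc4a11 (r = 0.98 for each). Irf4 was most like Dennd1c, Gimap5 and Cd6 (r = 0.96 to 0.98), of which Gimap5 and Cd6 are lymphocyte genes. Irf5 was most like Hcls1, a blood cell gene, Dbnl and Art3 (r = 0.91 to 0.96). The values for Irf2 (Gnl1, Lpxn and Yif1a) and Irf3 (Usp42, 1700019D03Rik and AW146154) were 0.86 to 0.92, and 1700019D03Rik had as few as 2 counts in a tumor.

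The genes around the IRFs in the pathway were counted in 6 lists. Upstream of them, all 17 sensors, adaptors and kinases passed the filter, 11 had a higher mean in responders, 2 were higher and 0 lower at an unadjusted p below 0.05, and the median log2 fold change was 0.053 (0.032 without non-responder 6 and 0.086 without non-responder 3). Sting1 (listed as Tmem173), the adaptor of the DNA sensor cGAS, had the largest of these differences. Its CPM was 71.0 to 89.9 in responders and 58.3 to 68.2 in non-responders, without overlap (log2 fold change 0.31, SE 0.07, unadjusted p = 0.000456, edgeR adjusted p = 0.555). Of all genes tested, 0.883% had groups that did not overlap, in either direction. Traf6 had a log2 fold change of 0.12 (SE 0.06, unadjusted p = 0.0449) and Tlr4 one of 0.19 (SE 0.09, unadjusted p = 0.0514). The kinases that phosphorylate IRF3 and IRF7 differed less, with log2 fold changes of 0.086 for Tbk1 (SE 0.06) and 0.11 for Ikbke (SE 0.11).

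Of 8 interferon genes, only Ifng passed the filter. Interferon gamma mRNA was at 1.5, 3.1, 2.0, 4.0 and 2.3 CPM in responders 5, 9, 10, 11 and 12, and at 1.78, 0.722, 1.48, 2.05 and 1.15 CPM in non-responders 1, 2, 3, 6 and 7. Responders 9, 11 and 12 lay above every non-responder (log2 fold change 0.87, SE 0.30, unadjusted p = 0.0134, edgeR adjusted p = 0.566). The type I gene Ifnb1 had 0 to 4 counts per tumor, Ifna2 and Ifna4 0 to 2, and Ifna1, Ifna5, Ifnl2 and Ifnl3 had 0 in every tumor. With so few counts a group difference in type I or type III interferon mRNA was not detectable at this depth.

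The 7 receptor chains and JAK kinases had a median log2 fold change of 0.092. Of these, 6 had a higher mean in responders and none had an unadjusted p below 0.05. The smallest p-values were those of Ifnar2 (log2 fold change 0.17, SE 0.09), Ifnar1 (0.092, SE 0.05) and Jak2 (0.15, SE 0.08). Among 14 partner factors, 10 had a higher mean in responders, 3 were higher and 2 lower at an unadjusted p below 0.05, and the median was 0.15 (0.097 without non-responder 2). The 2 lower ones were Irf2bp1 (log2 fold change -0.20, SE 0.07, unadjusted p = 0.00988) and Irf2bpl (-0.19, SE 0.07, unadjusted p = 0.0200), genes of the family of IRF2 co-repressors, while the other family member, Irf2bp2, had 0.00054 (SE 0.05, unadjusted p = 0.992) and was named after its value was seen. Batf3, a partner of IRF8 in cross-presenting dendritic cells, had 0.61 (SE 0.23, unadjusted p = 0.0212), whereas Spi1, which encodes PU.1, had 0.071 (SE 0.10). Batf3 was scarce, at 1.23 to 3.04 CPM and 27 to 92 estimated counts per tumor.

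Downstream, the targets of the complexes that hold IRF9 and IRF1 were counted separately. Of 28 type I interferon (ISGF3) targets, 21 had a higher mean in responders, 3 were higher and 0 lower at an unadjusted p below 0.05, and the median log2 fold change was 0.082. This median rested on single tumors: it was -0.0070 without responder 5, 0.022 without non-responder 2 and 0.12 without responder 12. The 3 ISGF3 targets higher at an unadjusted p below 0.05 were Zbp1 (0.45, SE 0.15), Xaf1 (0.32, SE 0.13) and Bst2 (0.21, SE 0.09). Isg15 had 0.063 (SE 0.11). Of 30 interferon gamma targets, 30 had a higher mean in responders, 22 were higher and 0 lower at an unadjusted p below 0.05, and the median was 0.30 (0.24 without non-responder 2 and 0.42 without non-responder 3). Over all genes tested, 50.3% had a log2 fold change above 0, and 4.75% were higher in responders at such a p. Genes of a list can vary together, so these counts are not independent results. The lists were also chosen with earlier results of these data known. The smallest p-values were those of Cd274, which encodes PD-L1 (0.79, SE 0.21), the chemokine gene Cxcl10 (0.51, SE 0.14) and the guanylate-binding protein gene Gbp5 (0.54, SE 0.17). No gene of the 6 lists had an adjusted p below 0.05, and the difference between the ISGF3 list and the interferon gamma list was not tested.

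**Figure D4:**
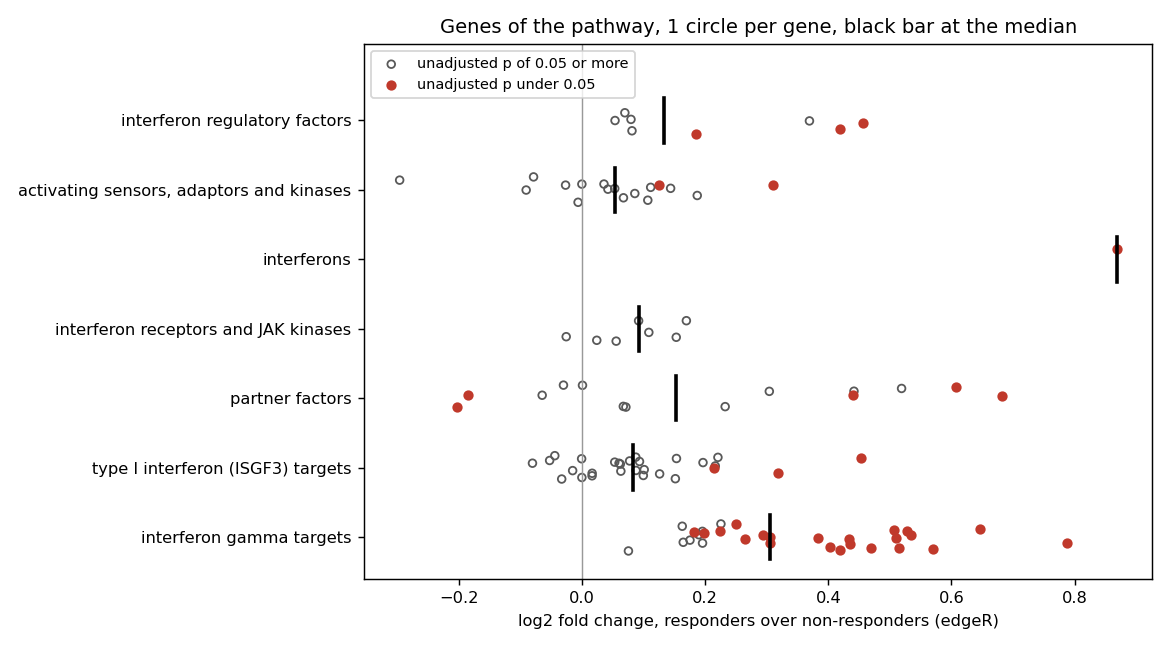
Log2 fold change of responders over non-responders (horizontal axis, edgeR) for the 8 IRF genes and each gene of the 6 pathway lists that passed the filter. Each circle is a gene, filled where the unadjusted p was below 0.05, and black bars are medians. All 30 interferon gamma targets lie right of 0, with a median of 0.30, against 0.082 for the 28 ISGF3 targets, a value that was -0.0070 without responder 5. Of all genes tested, 50.3% had a log2 fold change above 0.

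Because several IRFs are made by particular cell types, markers of 14 kinds of cells and tissues were read in the same libraries. The labelled cell type, fibrosarcoma, was checked by mesenchymal genes, of which Vim was at 4934 ± 436 CPM in responders against 4716 ± 361 CPM. The fibrosarcoma and fibroblast list, which cannot separate cancer cells from fibroblasts of the host, had 2 of 7 genes with a higher mean in responders, 2 lower at an unadjusted p below 0.05 and a median log2 fold change of -0.20. Col1a1 had -0.27 (SE 0.08, unadjusted p = 0.00706, edgeR adjusted p = 0.555).

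The NK and T cell lists and Ptprc had higher means in responders, as Irf1, Irf8 and Irf4 did, although no marker passed adjustment. Higher means were not limited to these lists. They were also found for all 5 neutrophil markers past the filter and for 10 of 11 macrophage markers, described below. Ptprc was at 97.4, 126, 127, 136 and 115 CPM in responders 5, 9, 10, 11 and 12, and at 114, 89.5, 122, 109 and 89.1 CPM in non-responders 1, 2, 3, 6 and 7 (log2 fold change 0.20, SE 0.10, unadjusted p = 0.0786). All 7 NK cell markers had a higher mean in responders, 6 of them at an unadjusted p below 0.05, with a median of 0.90. Their summed level was 34.8, 115, 131, 215 and 124 CPM in responders 5, 9, 10, 11 and 12, and 72.1, 29.0, 42.5, 70.1 and 35.5 CPM in non-responders 1, 2, 3, 6 and 7. Gzma, the most abundant of them, had a log2 fold change of 1.82 (SE 0.57), and Ncr1 had 0.88 (SE 0.35). All 9 T cell markers had a higher mean in responders, 1 at an unadjusted p below 0.05 (Lck, the most abundant, 0.57, SE 0.22), with a median of 0.45 (0.27 without non-responder 2 and 0.68 without responder 5), and Cd3d had 0.15 (SE 0.26). Their summed level was 23.4, 52.7, 53.4, 61.9 and 42.5 CPM in the responders and 50.9, 23.0, 32.2, 37.3 and 29.2 CPM in the non-responders, in the same order of tumors. Responder 5 was thus the responder with the lowest NK and T cell sums, and both sums lay below those of non-responders 1, 3, 6 and 7. It was also the lowest responder for Irf8 and Irf4, whereas for Irf1 the lowest was responder 10. The part of NK and T cells in the differences of Irf1, Irf8 and Irf4 was not tested.

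Markers of the cells in which IRF8 is best known were read next. Of 9 markers of cross-presenting dendritic cells, 6 had a higher mean in responders, 1 was higher and 1 lower at an unadjusted p below 0.05, and the median was 0.054 (-0.013 without non-responder 3 and 0.13 without non-responder 7). The 1 higher marker was Batf3, the gene already counted among the partner factors. Xcr1 was at 1.14 ± 0.442 CPM in responders against 1.15 ± 0.251 CPM, and Naaa, the most abundant, had a log2 fold change of 0.072 (SE 0.10). Their summed level was 94.7 ± 7.84 CPM in responders against 97.5 ± 7.77 CPM. Of 11 macrophage markers, 10 had a higher mean in responders and none an unadjusted p below 0.05, with a median of 0.14 (0.066 without responder 11) and summed levels of 1897 ± 222 and 1707 ± 206 CPM. C1qa, the most abundant of them, had 0.15 (SE 0.09) and Adgre1 0.088 (SE 0.07). Of 7 markers of type 2 and monocyte-derived dendritic cells, 5 had a higher mean and 1 an unadjusted p below 0.05, Sirpa (0.28, SE 0.12), with a median of 0.19 (0.086 without responder 11 and 0.32 without non-responder 1), while Cd209a was at 0.868 ± 0.581 and 0.674 ± 0.362 CPM. The part of these cells was not tested either.

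For Irf4 and Irf7, the B lineage and plasmacytoid dendritic cells are the cells of interest, and their defining markers were scarce. Of 10 B and plasma cell markers 6 passed the filter, 4 with a higher mean, 0 higher and 1 lower at an unadjusted p below 0.05, with a median of 0.051 that was -0.10 without responder 5 and 0.16 without responder 10. Their summed level was 205 ± 9.25 CPM in responders against 225 ± 13.7 CPM. The lower one, Sdc1, was also the most abundant (-0.15, SE 0.05) and is made by many cells outside the B lineage. Of 7 plasmacytoid dendritic cell markers, 6 passed, 5 had a higher mean and none an unadjusted p below 0.05, with a median of 0.24 (0.045 without responder 10 and 0.42 without non-responder 1) and summed levels of 198 ± 20.6 against 220 ± 16.6 CPM. Siglech was at 2.91 ± 1.51 CPM in responders against 2.46 ± 1.32 CPM, and Tcf4, the most abundant and not restricted to these cells, had -0.17 (SE 0.09). Of 6 neutrophil markers, 5 passed and had a higher mean, 2 at an unadjusted p below 0.05, with a median of 0.62 (0.39 without responder 11). Csf3r, the most abundant of them, had 0.62 (SE 0.23), and S100a8 had 0.49 (SE 0.38).

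Markers of neighboring tissues were read as well. Of 5 endothelial markers, 1 had a higher mean in responders and 3 were lower at an unadjusted p below 0.05, with a median of -0.20, although Pecam1, the most abundant, had 0.097 (SE 0.07). All 5 skeletal muscle markers had a lower mean in responders, 1 at an unadjusted p below 0.05, with a median of -0.29 (-0.59 without responder 11 and -0.19 without responder 9) and summed levels of 131 ± 48.6 and 169 ± 43.7 CPM, and Acta1, the most abundant, had -0.21 (SE 0.29). All 4 adipocyte markers had a lower mean, 1 at an unadjusted p below 0.05, with a median of -0.49 (-0.97 without responder 10 and -0.12 without non-responder 7), at 0.794 ± 0.530 and 1.01 ± 0.539 CPM for Adipoq, while Cidec, the most abundant, had -0.58 (SE 0.54). Of 7 keratinocyte markers, 2 passed the filter, both with a higher mean and 1 at an unadjusted p below 0.05, with a median of 0.41. Krt5 had 0 to 6 counts per tumor, Krt1 had 0 in every tumor, and Krt10, the most abundant, had 0.018 (SE 0.14). None of these markers had an adjusted p below 0.05, and their part in the IRF values was not tested.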

How the data were processed

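RNA selected for poly(A) was sequenced in 150 bp paired reads. The authors estimated transcript abundance with Kallisto and summed it to genes with tximport on GRCm38, and deposited estimated counts per gene, not normalized. The annotation release and strand setting are not given in the sources used here. Of 36009 rows, 9580 without a gene name (1.20% to 1.49% of counts per tumor) were left out of library sizes and tests, rows sharing a name (44 names) were summed, and estimated counts were rounded to whole numbers.

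Genes above 0.366 CPM in at least 3 tumors, the filter the study gives for its time course, were tested with edgeR 4.0.16 (TMM, quasi-likelihood test, R 4.3.3). Each SE was obtained by dividing the log2 fold change by the root of edgeR's F. The common dispersion corresponds to 10.1% variation between tumors, and counting error adds to it for genes of few counts. Correlations used a pseudocount of 1. The fit was tested on simulated data. Alternatives were DESeq2 1.42.0, limma 3.58.1, other normalizations and filters, an exact permutation test, each tumor left out, a pseudocount of 0.1, and the rows without a name kept, which was chosen after seeing the data. The IRF genes and the 20 lists, written from general knowledge, were chosen with earlier results of these data known. Genes named were all members, 3 most alike per member, the 3 smallest p-values per pathway list, the first and the most abundant gene per marker list, and Stat2, Isg15, Ptprc, Adgre1, Tbk1, Ikbke, Ifnb1, Ifng, Spi1 and Batf3. Of the genes so chosen, 3 are not reported here. Krt1, Ifna1, Ifna2, Ifna4, Ifna5, Ifnl2 and Ifnl3 were named for their counts.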

Additional observations from a re-analysis of the deposited data

Results flagged for a closer look

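Within the groups of 5 tumors, 24 sets of values were checked for a single tumor far from the rest, for the 8 IRF genes and Stat2, Isg15, Ptprc and Adgre1 in either group, and 1 was found, where chance gives about 1.2. Irf3 was 5.48 in log2(CPM + 1) in responder 12, against 5.55 to 5.56 in the other 4 responders. The gap was wide only relative to how closely those 4 lay together, at 46.0 to 46.2 CPM.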

How the results depend on the processing

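No IRF gene was called under any of the 19 alternatives, of which the exact permutation test says nothing here, since its smallest p of 0.00794 could hardly pass adjustment over 14944 genes. Irf1 and Irf8 had an unadjusted p below 0.05 in 19 of 19, with log2 fold changes of 0.34 to 0.58 and 0.34 to 0.54, and Irf9 in 11 of 19 (0.13 to 0.24). Their adjusted p-values ranged from 0.203 to 0.861, from 0.115 to 0.861 and from 0.411 to 0.864. Leaving out each tumor in turn, the count of genes called in the whole table ran from 0 to 10, with 10 called without responder 5, and the count at an unadjusted p below 0.05 ran from 821 without responder 11 to 2095 without responder 5. Leaving out tumors changed the sign for Irf5 (-0.0151 to 0.142, below 0 without responder 11) and Irf7 (-0.00864 to 0.121, below 0 without responder 5). The cause was not tested. The other scalings moved the median of all genes to no lower than -0.0058. All 60 Pearson relations kept their side of the threshold with a pseudocount of 0.1. Nothing in the labels pairs the tumors.

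The groups held 5 tumors each, and Irf4 had 35 to 88 counts per tumor. Differences of the size seen here did not pass adjustment over 14944 tests, and the reason was not tested. Estimated counts carry an assignment error for overlapping genes that was not measured.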
